A study of Pongo abelii with 8 samples.

Results

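The members of the SOX family of transcription factors described here are 10 genes, SOX2, SOX3, SOX4, SOX5, SOX9, SOX10, SOX11, SOX12, SOX13 and SOX15. They were chosen among the 11963 genes of the arrays that have at least 1 probe set to which the platform annotation gives a single symbol. All of their 22 such probe sets were kept, whatever their signal, and 6 further SOX genes on the arrays are described with the companion genes. RNA came from 6 iPSC colonies and 2 dermal fibroblast cultures of 2 Sumatran orangutans, described in the labels as healthy controls: KB10973, a male aged 29 years, and KB10460, a female aged 43 years, with 3 colonies and 1 fibroblast culture each. The iPSCs are the fibroblasts of the same animals after transduction with retroviruses carrying human OCT4, SOX2, KLF4 and c-MYC, and each colony was picked by hand and grown on inactivated mouse embryonic fibroblasts. The fibroblasts received no virus. Per the growth notes the media of the cell types also differed, although the series' design text gives a single medium for both, so that cell type and medium cannot be told apart. The arrays carry human probes, and each value is the log2 signal of a probe set after RMA, a method that corrects background, makes the array distributions equal and summarizes the probes.

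SOX proteins bind DNA through a high-mobility-group (HMG) box related to that of SRY, the testis-determining factor, and bend the double helix. They usually act with a partner protein, and groups of closely related members can stand in for each other. SOX2 with OCT4 maintains pluripotency, and SOX2 with SOX3 maintains neural progenitors (group B1). SOX4, SOX11 and SOX12 form group C, SOX5 and SOX13 belong to group D, SOX9 and SOX10 to group E, and SOX15 alone makes up group G.

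Because human probes were hybridized with orangutan RNA, the probe sequences of the SOX2 and SOX15 probe sets that changed are shown first. The study supplied alignments of the human probes with orangutan sequence for these. SOX2 probe set 213721_at holds 11 probes of 25 bases. All 11 were without mismatch, and 581 of 582 aligned bases of their 586-base target region were identical (99.83%). Of the SOX2 probes, 7 lie wholly in the coding part, 2 span the stop codon and 2 lie after it, as these 3 examples show, 5′ to 3′.
SOX2 probe 1, coding: gcacatgaacggctggagcaacggc
SOX2 probe 8, spanning the stop codon: ctgcccctctcacacatgtgagggc
SOX2 probe 11, after the stop codon: gcatggagaaaacccggtacgctca
The vectors carried the human SOX2 cDNA, and the deposited table gives 1 value for the whole probe set. A vector transcript and that of the cell's own gene therefore cannot be told apart in the values of that probe set below. For the other SOX2 probe sets the place of the probes was not examined.

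SOX15 probe set 206122_at also holds 11 probes of 25 bases, of which 7 were without mismatch and 4 had mismatches, 7 mismatched bases in all. Over the target region 467 of 477 aligned bases were identical (97.9%), 4 probes lie in the coding part and 7 after the stop codon. The 4 probes with mismatches are printed with the mismatched bases in capitals, followed by 1 probe without any.
SOX15 probe 1: gacCttcccgctgcggacagggaag
SOX15 probe 4: gaccctaggctccagggggaActgc
SOX15 probe 5: tcctCCttttttAatcCagcagcat
SOX15 probe 11: gagagccgcacaacatacaAttata
SOX15 probe 6: accctttctcctgttggactacagt
Counted from 1 at the 5′ end of the probe, with the probe's base first, the substitutions were C4T in probe 1, A21G in probe 4, A13C and C17T in probe 5, and A20G in probe 11. The other 2 capitals of probe 5 face a gap. In these alignments the row named orangutan held the letters of all 11 probes for both genes and the other row carried genome positions, so the row names may be interchanged. The number and place of mismatches do not depend on that. Their part in the SOX15 signal was not tested. Alignments of the other SOX2 and SOX15 probe sets and of the other 8 members were not analysed here.

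**Figure D1:**
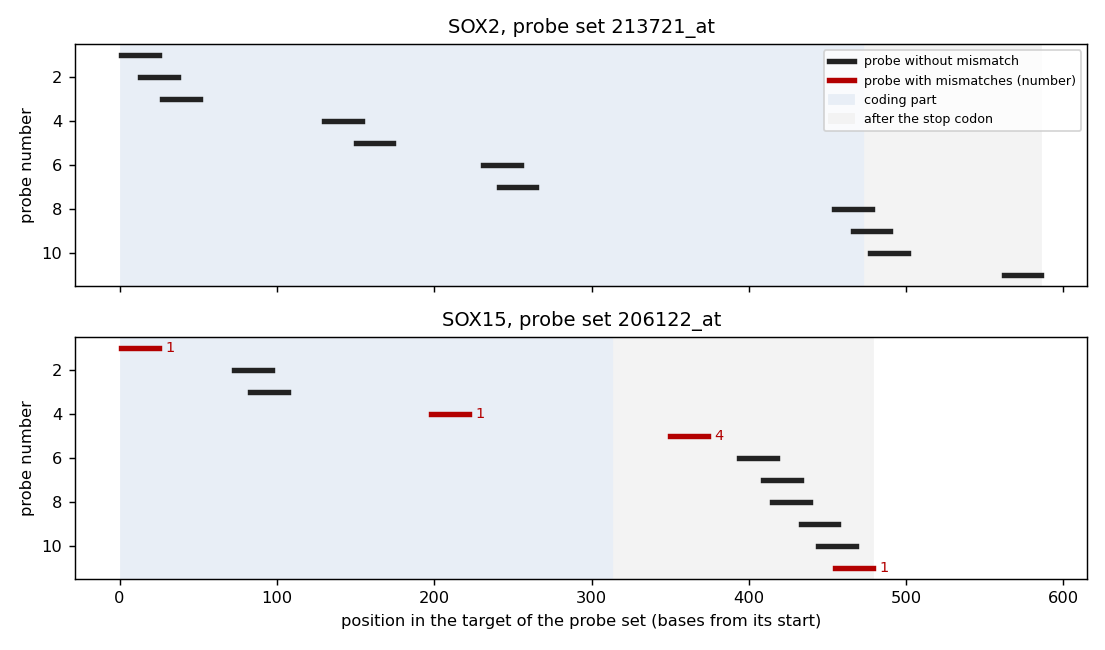
Place of the 11 probes of SOX2 probe set 213721_at and of SOX15 probe set 206122_at along their target regions, in bases from the start of the target (x axis), with the probe number on the y axis. Black bars are probes without mismatch, red bars are probes with the number of mismatches written beside them, and shading separates the coding part from the part after the stop codon. None of the SOX2 probes and 4 of the SOX15 probes hold a mismatch, the most being the 4 of SOX15 probe 5.

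As a check of the labels, 9 of 10 fibroblast markers were called lower in the iPSCs and 1 higher (THY1). The mean log2 level of these markers was 5.18 to 5.70 in the iPSC arrays and 9.47 to 9.78 in the fibroblast arrays. All 6 measured pluripotency markers were called higher, with a mean of 8.42 to 8.93 in the iPSC arrays and 3.90 in both fibroblast arrays. Array medians lay between 3.74 and 3.82. The p-values of iPSCs against fibroblasts come from the spread of the arrays within each cell type, which mixes cultures and animals. Since 3 colonies come from 1 animal, these p-values do not measure the spread between animals. In the comparisons of the donors the p-values reflect the spread between cultures and not between animals.

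The comparison of iPSCs with fibroblasts asked how the SOX family differs between the reprogrammed cells and their source. Of the 22 SOX probe sets, 7 were called higher in the iPSCs, 1 was called lower and 14 were not called. A probe set was called in limma (two-sided) if the change passed 1.5-fold and the p, adjusted by Benjamini-Hochberg over all 22277 probe sets, was under 0.05. Over all probe sets 12.2% were called higher and 9.6% lower. The calls upward fell on 5 genes, SOX2, SOX3, SOX4, SOX11 and SOX15, and the call downward on SOX9. No probe set of SOX5, SOX10, SOX12 or SOX13 was called. The median log2 fold change was 0.29 over the SOX probe sets and -0.01 over all probe sets. The 6 further measured SOX genes are not in these counts. Of them 0 were called, and their median change was 0.08 at the probe set of highest mean signal. Since the members were chosen with earlier results of these data known, the counts do not stand for the whole family. In 12 SOX probe sets all 6 iPSC arrays stood above both fibroblast arrays (19.8% of all probe sets), and in 1 they all stood below (18.2% of all probe sets). In the other 9 the arrays overlapped. For 7 probe sets the signal was at or under the median of its array in all 8 arrays, and none of these was called. Probe sets of the same gene share a transcript and are not independent, and levels of different probe sets are not compared with each other because probes differ in affinity.

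**Figure D2:**
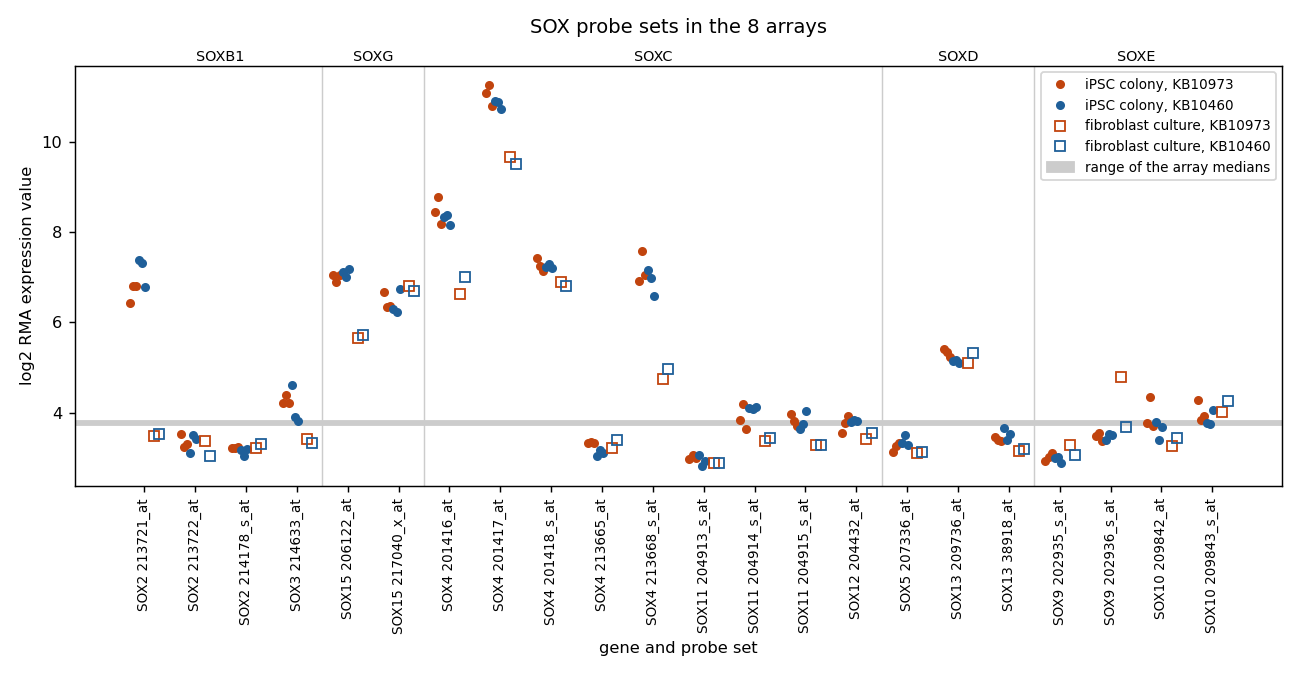
Log2 RMA value (y axis) of each of the 22 SOX probe sets (x axis, ordered by group of the family) in each of the 8 arrays. Filled circles are iPSC colonies and open squares fibroblast cultures, orange for KB10973 and blue for KB10460, and the grey band is the range of array medians, 3.74 to 3.82. SOX2 213721_at, SOX15 206122_at and 3 of the SOX4 probe sets stand well above the fibroblast arrays, while many other probe sets lie near the grey band.

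In group B1, SOX2 had the largest change of any member. Its probe set 213721_at was at 6.42, 6.80 and 6.80 in the KB10973 colonies and at 7.38, 7.31 and 6.79 in the KB10460 colonies. The fibroblasts were at 3.48 in KB10973 and 3.54 in KB10460, below the median of their arrays. The lowest iPSC colony was thus far above both fibroblast cultures. The mean was 6.92 ± 0.36 (SD, n = 6) in iPSCs and 3.51 ± 0.04 (SD, n = 2) in fibroblasts, a log2 fold change of 3.40 (standard error 0.23, 95% interval 2.88 to 3.93, 10.6-fold, adjusted p = 6.0e-06). Within the donors the change was 3.19 in KB10973 and 3.62 in KB10460.

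The other SOX2 probe sets were not called. Probe set 213722_at was at 3.11 to 3.54 (median 3.37) in the iPSCs, against 3.37 and 3.04 in the KB10973 and KB10460 fibroblasts, with a log2 fold change of 0.15 (95% interval -0.16 to 0.46, adjusted p = 0.49). Probe set 214178_s_at was at 3.05 to 3.24 (median 3.22) in the iPSCs and at 3.22 and 3.31 in the fibroblasts, with a change of -0.07 (95% interval -0.25 to 0.11, adjusted p = 0.58). Both lay at or under the array median in all 8 arrays and overlapped between the cell types.

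SOX3, the X-linked member of group B1 with roles in the pituitary and the nervous system, was called higher in the iPSCs at low signal. Its single probe set 214633_at ranged over 3.83 to 4.63 (median 4.22) in the iPSC colonies, against 3.42 in the KB10973 fibroblasts and 3.32 in the KB10460 fibroblasts. All 6 colonies stood above both fibroblast cultures, which were below their array medians. The log2 fold change was 0.83 (standard error 0.19, 95% interval 0.39 to 1.27, 1.77-fold, adjusted p = 0.010). Without the KB10460 fibroblast array it was 0.78 and no longer called (adjusted p = 0.076).

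SOX15, the single member of group G, is expressed in mouse embryonic stem cells and has been studied in mouse placenta and muscle. Probe set 206122_at was at 7.05, 6.88 and 7.06 in the KB10973 colonies and at 7.12, 7.01 and 7.19 in the KB10460 colonies. The fibroblast values were 5.67 for KB10973 and 5.72 for KB10460. The colonies lay close together and all of them were above the fibroblasts. SOX15 averaged 7.05 ± 0.10 (SD, n = 6) in iPSCs and 5.69 ± 0.04 (SD, n = 2) in fibroblasts. Its log2 fold change was 1.36 (standard error 0.09, 95% interval 1.15 to 1.56, 2.56-fold, adjusted p = 4.8e-06), with 1.33 within KB10973 and 1.38 within KB10460. SOX2 was the only SOX gene in the vector mixture, and the cause of the SOX15 change was not tested.

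A different picture came from the other SOX15 probe set, 217040_x_at, whose suffix marks probes that can also match other transcripts. It was at 6.23 to 6.75 (median 6.35) in the iPSCs, against 6.80 and 6.69 in the KB10973 and KB10460 fibroblasts. The arrays overlapped, and the log2 fold change of -0.30 was not called (95% interval -0.64 to 0.03, adjusted p = 0.18).

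SOX4, a group C factor of progenitors in many tissues including neural and lymphoid ones, was called higher at 3 of its 5 probe sets. Probe set 213668_s_at was at 6.59 to 7.57 (median 7.02) in the iPSCs, against 4.74 in the KB10973 fibroblasts and 4.97 in the KB10460 fibroblasts. Its log2 fold change was 2.19 (standard error 0.21, 95% interval 1.72 to 2.67, 4.57-fold, adjusted p = 5.1e-05). After SOX2, this was the member with the largest change.

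The signal of SOX4 in fibroblasts was itself well over the array medians at the other 2 called probe sets. At 201416_at the iPSCs were at 8.16 to 8.77 (median 8.36), against 6.63 and 6.997 in the KB10973 and KB10460 fibroblasts. The log2 fold change there was 1.56 (standard error 0.16, 2.95-fold, adjusted p = 9.5e-05). At 201417_at the iPSCs were at 10.72 to 11.26 (median 10.88), with 9.66 and 9.50 in the fibroblasts of KB10973 and KB10460. This gave a change of 1.36 (standard error 0.14, 2.56-fold, adjusted p = 8.0e-05). No iPSC array overlapped a fibroblast array at either probe set.

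Of the remaining SOX4 probe sets, 201418_s_at was at 7.15 to 7.43 (median 7.23) in iPSCs and at 6.89 and 6.79 in the KB10973 and KB10460 fibroblasts. Its arrays did not overlap and its adjusted p was 0.0063, but the log2 fold change of 0.41 (95% interval 0.21 to 0.61, 1.33-fold) was under the fold threshold. Probe set 213665_at was at 3.05 to 3.36 (median 3.26) in iPSCs and at 3.22 and 3.40 in the fibroblasts, at or under the median of every array, and was not called (log2 fold change -0.08, 95% interval -0.33 to 0.17, adjusted p = 0.67). Probe sets of SOX4 thus gave changes between -0.08 and 2.19.

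SOX11, a group C factor of differentiating neurons, was called at 1 of 3 probe sets, and only just past the fold threshold. At 204914_s_at the iPSCs were at 3.65 to 4.20 (median 4.09), against 3.38 in the KB10973 fibroblasts and 3.43 in the KB10460 fibroblasts. All colonies stood above the fibroblasts, with a log2 fold change of 0.60 (standard error 0.14, 95% interval 0.27 to 0.92, 1.51-fold, adjusted p = 0.011). This call was lost in 10 of the alternatives run, among them a fold threshold of 2 and leaving out either fibroblast array (adjusted p = 0.065 without KB10973 and 0.054 without KB10460). Leaving out KB10973 colony 2 or any one KB10460 colony moved the change to between 0.56 and 0.58, under the fold threshold.

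The second SOX11 probe set, 204915_s_at, was at 3.64 to 4.05 (median 3.78) in iPSCs and at 3.30 in both fibroblast cultures. Here too the arrays did not overlap, and the log2 fold change of 0.52 (95% interval 0.26 to 0.78, 1.44-fold, adjusted p = 0.0075) stayed under the fold threshold. Probe set 204913_s_at was at 2.82 to 3.07 (median 3.00) in iPSCs and at 2.90 in both fibroblast cultures, with a change of 0.08 (95% interval -0.11 to 0.28, adjusted p = 0.54). SOX12, a widely expressed member of group C, was at 3.57 to 3.93 (median 3.81) in iPSCs, against 3.41 and 3.56 in the KB10973 and KB10460 fibroblasts. Every colony was above both fibroblast cultures, by a narrow margin, and the log2 fold change of 0.30 was not called (95% interval 0.07 to 0.53, adjusted p = 0.055).

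**Figure D3:**
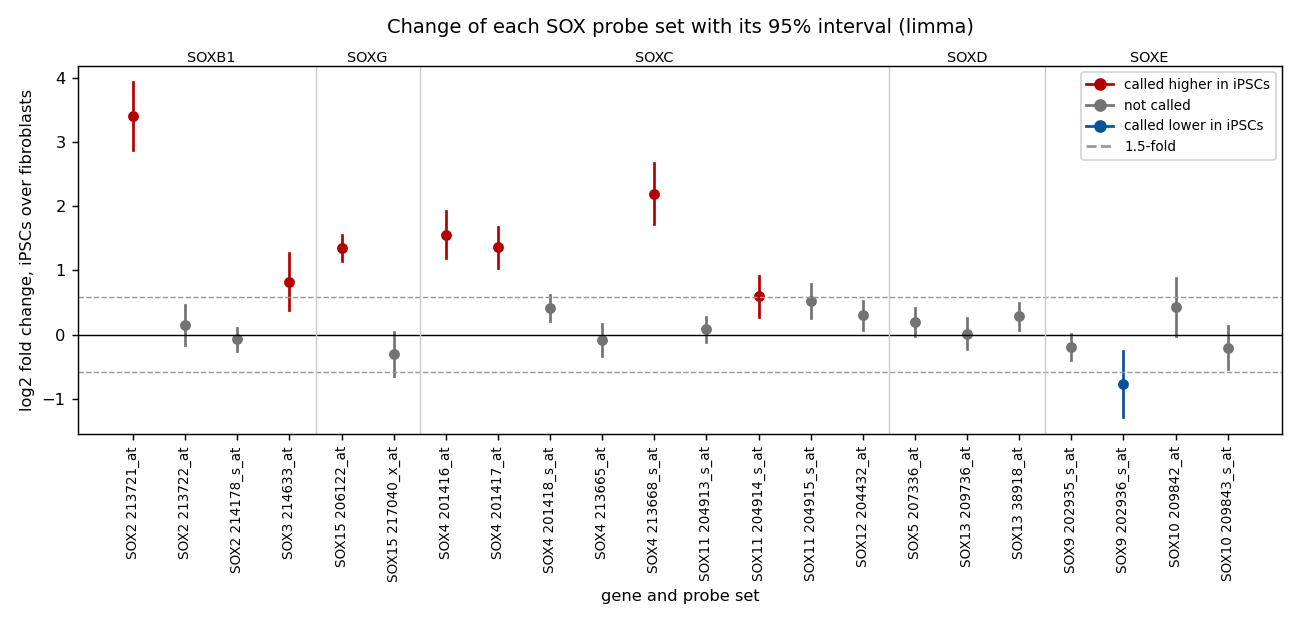
Log2 fold change of iPSCs over fibroblasts (y axis) of each SOX probe set (x axis, by group of the family), with its 95% interval from limma. Red points were called higher in iPSCs, the blue point was called lower and grey points were not called, and the dashed lines mark 1.5-fold. The 7 red points belong to SOX2, SOX3, SOX15, SOX4 and SOX11, with SOX2 213721_at highest at 3.40, and the blue point is SOX9 202936_s_at at -0.77.

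Group D factors lack a transactivation domain of their own and modify the action of other SOX proteins, as SOX5 does with SOX9 in cartilage. No group D probe set was called. SOX5 was at 3.14 to 3.52 (median 3.31) in iPSCs, against 3.10 and 3.13 in the KB10973 and KB10460 fibroblasts, with a log2 fold change of 0.20 (95% interval -0.02 to 0.42, adjusted p = 0.18). Its signal was under the array median in every array.

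SOX13, also known as an autoantigen of islet cells, was over the array medians in both cell types at probe set 209736_at and was not called there. The iPSCs were at 5.09 to 5.41 (median 5.21), against 5.11 and 5.33 in the KB10973 and KB10460 fibroblasts, and the log2 fold change was 0.02 (95% interval -0.22 to 0.26, adjusted p = 0.94). The interval leaves out a change past the 1.5-fold threshold of 0.58 in either direction. At the dim SOX13 probe set 38918_at the iPSCs were at 3.38 to 3.66 (median 3.43) and the fibroblasts at 3.16 and 3.21. The change of 0.29 passed the adjusted p (0.043) but not the fold threshold (95% interval 0.08 to 0.50, 1.22-fold).

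Group E factors direct lineages outside the pluripotent state. SOX9 is required in cartilage and testis, and SOX10 in neural crest, Schwann cells and melanocytes. SOX9 was the only member called lower in the iPSCs, at probe set 202936_s_at. Its values were 3.49, 3.55 and 3.38 in the KB10973 colonies and 3.39, 3.53 and 3.50 in the KB10460 colonies, against 4.79 in the KB10973 fibroblasts and 3.69 in the KB10460 fibroblasts. All colonies were below both fibroblast cultures, but only the KB10973 fibroblasts were over the median of their array. The mean was 3.47 ± 0.07 (SD, n = 6) in iPSCs and 4.24 ± 0.78 (SD, n = 2) in fibroblasts. The log2 fold change was -0.77 (standard error 0.23, 95% interval -1.28 to -0.26, adjusted p = 0.030), and fibroblasts were 1.70-fold higher than iPSCs.

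This SOX9 call rested on the KB10973 fibroblast array. Without that array the log2 fold change was -0.22 (adjusted p = 0.17). The call also ended without KB10973 colony 1 (adjusted p = 0.052), KB10973 colony 3 (adjusted p = 0.056) or KB10460 colony 1 (adjusted p = 0.053), where the change stayed between -0.77 and -0.75. The other SOX9 probe set, 202935_s_at, was at 2.89 to 3.12 (median 3.00) in iPSCs and at 3.30 and 3.07 in the KB10973 and KB10460 fibroblasts. These arrays overlapped and lay under their medians, and the change of -0.19 was not called (95% interval -0.39 to 0.02, adjusted p = 0.17).

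SOX10 was not called at either probe set. At 209842_at the iPSCs were at 3.40 to 4.34 (median 3.74), against 3.27 and 3.45 in the KB10973 and KB10460 fibroblasts (log2 fold change 0.43, 95% interval -0.03 to 0.88, adjusted p = 0.16). KB10973 colony 2 was the highest array there. At 209843_s_at the iPSCs were at 3.75 to 4.29 (median 3.88), against 4.03 and 4.26 in the fibroblasts, with a change of -0.20 in the opposite direction (95% interval -0.54 to 0.14, adjusted p = 0.39). The arrays of the cell types overlapped at both.

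The colonies of the donors were then compared with each other, KB10973 minus KB10460, to ask whether SOX levels differ between iPSCs of the 2 animals. No SOX probe set was called by limma (0 of 22), and 3 of 22 had an unadjusted p under 0.05, against 2265 of 22277 over all probe sets, a share near that of the members. Over all probe sets 0.0898% were called. The largest SOX difference was that of SOX2 213721_at, whose means were 6.67 ± 0.22 in the KB10973 colonies and 7.16 ± 0.32 in the KB10460 colonies (SD, n = 3 each). The difference was -0.49 (standard error 0.18, adjusted p = 0.41), and KB10460 colony 3 lay among the KB10973 colonies. The other 2 were SOX4 213665_at with a difference of 0.23 (adjusted p = 0.36) and SOX13 209736_at with 0.19 (adjusted p = 0.47). SOX15 206122_at differed by -0.10 between the donors (95% interval -0.31 to 0.10).

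The change from fibroblasts to iPSCs was also compared between the animals, as the change in KB10973 minus that in KB10460. Each animal has 1 fibroblast array, which was assumed to vary like a colony. The standard errors therefore rest on the spread of the colonies, and that between fibroblast cultures of an animal is not known. Among the SOX probe sets 1 was called, SOX9 202936_s_at, and 3 of 22 had an unadjusted p under 0.05, against 3388 of 22277 over all probe sets, again a similar share. Over all probe sets 2.91% were called. The SOX9 change was -1.32 in KB10973 and -0.22 in KB10460, a difference of -1.10 (standard error 0.17, 95% interval -1.49 to -0.71, adjusted p = 0.017). The SOX9 means of the colonies were 3.47 in both donors, and the fibroblast arrays differed by 1.10, KB10973 minus KB10460. Without KB10973 colony 1 the difference of the change was -1.11 and was not called (adjusted p = 0.051). SOX2 213721_at, SOX3, SOX15 206122_at and the 3 called SOX4 probe sets were higher in iPSCs within each donor, and their changes differed between donors by at most 0.53, with none called.

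**Figure D4:**
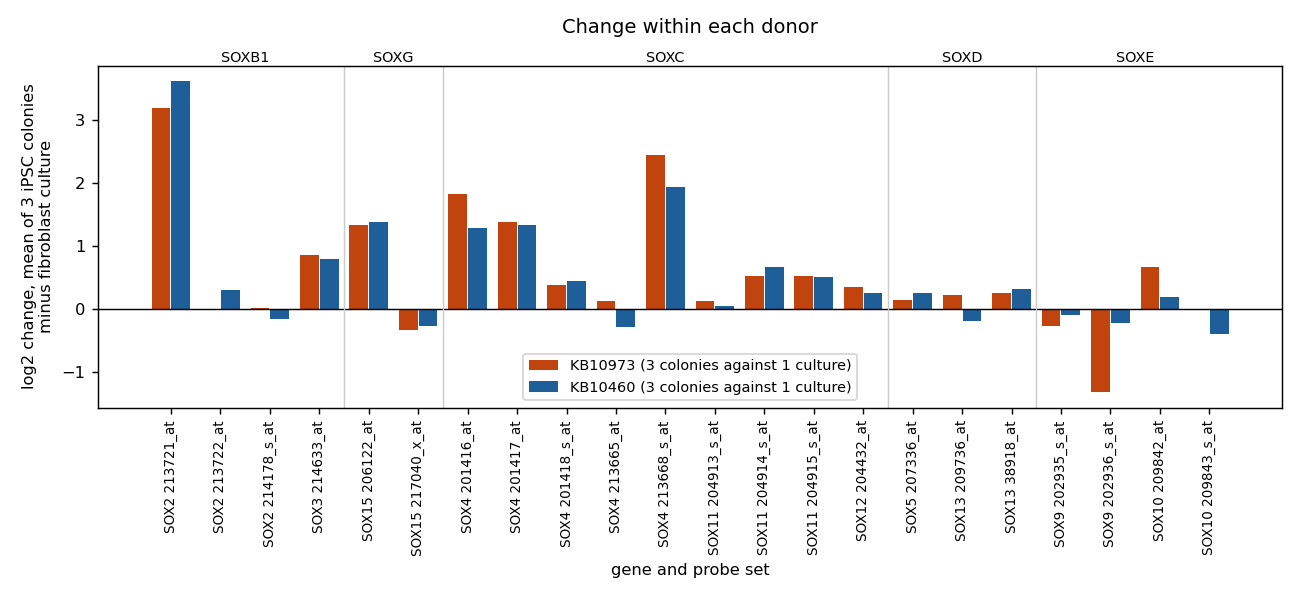
Log2 change of each SOX probe set within each donor (y axis), the mean of 3 iPSC colonies minus the single fibroblast culture, orange bars for KB10973 and blue bars for KB10460. SOX2 213721_at changed by 3.19 in KB10973 and 3.62 in KB10460, and SOX9 202936_s_at by -1.32 in KB10973 and -0.22 in KB10460.

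Some colonies stood apart over whole chromosomes, which is given here for the SOX genes on them. The values are medians over genes with a mean log2 value over 6, as differences from the median colony. For the 121 such genes of chromosome X, where SOX3 lies, KB10460 colony 1 was at 0.81 and KB10460 colony 3 at 0.20, and the other 4 colonies between -0.13 and -0.03. KB10460 colony 1 was also the highest colony for SOX3, at 4.63. For chromosome 12, which holds SOX11 in the orangutan assembly, KB10973 colonies 1 and 2 were at 0.34 and 0.40 (126 genes). These colonies had 3.85 and 4.20 at SOX11 204914_s_at, on either side of the median colony of 4.09. For chromosome 10 with SOX5, KB10460 colony 2 was at 0.33 (177 genes) and was the highest SOX5 colony, at 3.52. The SOX5 signal was at or under the array median in all 8 arrays, with the colonies at 3.14 to 3.52. For the chromosomes of the other members every colony was between -0.07 and 0.11. On DNA arrays the study detected no large copy number changes in the iPSCs it analysed. It gives those DNA data for KB10973 colony 1 and KB10460 colony 1. The cause of the expression shifts, and their part in the SOX values, was not tested.

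The companions of the SOX factors were described from gene lists, taking for each gene the probe set of highest mean signal. On this gene level 15.2% of all genes were called higher and 11.5% lower. None of the 6 other measured SOX genes (SOX1, SOX14, SOX18, SOX21, SOX30 and SRY) was called in limma, and all 6 were at or under the array median in every array. At an unadjusted p under 0.05 SOX14 alone passed, with 3.03 to 3.30 in iPSCs and 2.92 and 2.96 in the fibroblasts of KB10973 and KB10460. Among 15 partners and targets of SOX2 in pluripotent cells, 10 were called higher, 0 lower (0 also at an unadjusted p under 0.05) and 5 were not called. The largest changes were those of LIN28A, an inhibitor of let-7 maturation (7.16), the Polycomb gene PHC1 (5.04), JARID2 (4.90) and the epithelial cadherin CDH1 (4.83). Their median log2 fold change was 2.54, against -0.0039 over all genes.

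Neural progenitor genes, which SOX2 and SOX3 accompany in the nervous system, were mostly dim. Of 12 measured, 1 was called higher, the intermediate filament gene NES (2.20), and 10 were at or under the array median throughout. Among 14 neuronal genes that include SOX4 and SOX11 targets, 7 were called higher and 1 lower. GAP43, a growth cone protein, was higher by 5.06 and INA, a neurofilament protein, by 2.87. MARCKSL1 was higher by 2.65, while STMN2, a microtubule regulator, fell by 7.46. The median of the list was 0.68.

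Genes of cartilage, where SOX9 and the group D factors act, were not called higher by limma (0 of 16, with 1 at an unadjusted p under 0.05). That gene, COL9A3, was higher by 0.57 and passed the adjusted p (0.013) but not the fold threshold. MATN1, at or under the array median in all 8 arrays, was lower by 0.29 and likewise passed only the adjusted p (0.034). Which genes of the list respond to SOX9 was not tested. Called lower was 1 gene, COL10A1, the collagen gene of hypertrophic cartilage. It averaged 3.89 ± 0.07 (SD, n = 6) in iPSCs, against 9.22 and 12.10 in the KB10973 and KB10460 fibroblasts. COL2A1, the collagen gene most closely tied to SOX9, was at 3.60 ± 0.20 (SD, n = 6) in iPSCs and 3.36 ± 0.03 (SD, n = 2) in fibroblasts and was not called (adjusted p = 0.26). The KB10973 fibroblast array had the higher SOX9 signal of the pair and the lower COL10A1 signal. Other genes of the list differed between these arrays in both directions. COL9A2 was at 3.85 in the KB10973 and 3.70 in the KB10460 fibroblasts, and COL11A1 at 3.38 and 4.27. A relation to SOX9 cannot be read from a single pair of arrays.

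Of 13 neural crest, Schwann cell and melanocyte genes of SOX10-expressing cells, 2 were called higher (PMEL by 1.74 and ERBB3 by 1.61) and 1 lower (TFAP2A, which fell by 4.32), or 2 lower with the donor as a block. Of 13 HMG-box genes outside the SOX family, 7 were called higher and 1 lower, with a median of 0.94. They include TCF7L1, a repressor of Wnt target genes (3.57), HMGB3 (3.50), HMGB2 (2.90) and HBP1, which fell by 1.76. TCF7L1 is also on the list of SOX2 partners and targets.

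Genes of other cell types that the cultures could hold gave the following counts. Of 15 fibroblast genes 14 were called lower and 1 higher, with DCN (-8.67), COL3A1 (-7.52), FAP (-6.60) and S100A4 (-6.57) changing most. All fibroblast markers from the check of the labels are among them. Of 6 keratinocyte genes 0 were called in limma, and 1 was lower at an unadjusted p under 0.05. Of 8 endothelial genes 2 were called higher (KDR by 2.81 and TEK by 1.93) and 1 lower (PECAM1, which fell by 3.52). Of 6 endoderm and mesoderm genes 2 were called higher (GATA6 by 3.94 and AFP by 2.08) and 1 lower (CXCR4, which fell by 2.02). GATA6 ranged over 5.88 to 9.03 among the colonies. The part of such cells, and of RNA from the mouse feeder cells, in the SOX values was not tested.

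**Figure D5:**
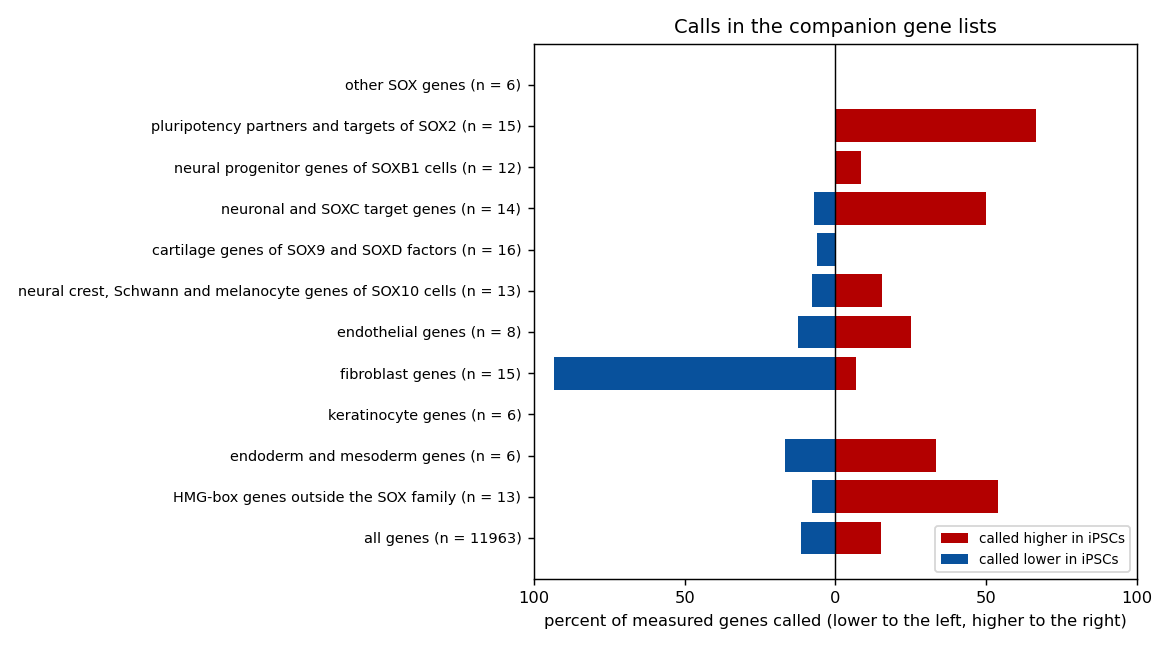
Percent of the measured genes of each list called higher in iPSCs (red, to the right) or lower (blue, to the left), with all genes in the last row and the number of genes in brackets. Among the SOX2 partners and targets 66.7% were called higher, against 15.2% of all genes, and none of the other SOX genes was called.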

How the data were processed

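The authors hybridized biotin-labelled cRNA, made from the total RNA of 8 cultures, to one-colour Affymetrix arrays with human probes and normalized them with RMA in the WebArray software, with a version not given in the sources used here. They deposited log2 values for 22277 probe sets. RMA would remove a change shared by most transcripts. All columns belong to a sample (0 left over).

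From the deposited log2 values limma 3.58.1 (lmFit, eBayes) in R 4.3.3 fitted all probe sets, iPSCs against fibroblasts over 8 arrays without a block, the iPSCs of the donors over 6, and the interaction of cell type and donor. The study's methods name limma. Genes come from the platform annotation (19070 probe sets with 1 symbol, 1043 with several, 2164 with none). Every SOX probe set is named, and of each list up to 4 called genes with the largest change. POU5F1 and other listed genes without a probe set of their own are not counted as measured. The SOX members and the gene lists were chosen with earlier results of these data known, so they are no independent evidence.

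Fibroblasts and iPSCs of a donor are paired by the animal. The donor difference in fibroblasts and in iPSCs correlated at 0.02 over probe sets. Chromosomes come from the orangutan assembly in RefSeq, used for membership only. Probe mismatches were counted in Python 3.11.15, and figures drawn with matplotlib 3.10.9. Scripts were tested on simulated data. Depth does not apply to arrays. Their number, with 2 of fibroblasts, limits the precision. Alternatives changed the block, centring, variance moderation, array weights, filter, fold threshold and probe sets per gene, averaged colonies, or left out arrays. SOX protein and promoter sequences were not analysed here.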

Additional observations from a re-analysis of the deposited data

Results flagged for a closer look

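SOX9 202936_s_at was flagged because its change differed between the donors by -1.10, KB10973 minus KB10460 (limma, adjusted p = 0.017). The KB10973 fibroblast array was at 4.79, against 3.69 in the KB10460 fibroblasts. With a single fibroblast array per donor, it cannot be told which of them is unusual.

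For 3 further probe sets the change had opposite directions in the donors, and the test of the difference did not pass. SOX4 213665_at changed by 0.12 in KB10973 and by -0.28 in KB10460, a difference of 0.41 (adjusted p = 0.25). SOX13 209736_at changed by 0.22 in KB10973 and -0.19 in KB10460, a difference of 0.41 (adjusted p = 0.27). SOX2 214178_s_at changed by 0.02 in KB10973 and -0.16 in KB10460, a difference of 0.18 (adjusted p = 0.68).

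SOX2 214178_s_at was also flagged for a colony far from the others. KB10460 colony 2, at 3.05, lay below the other 5 colonies, which were at 3.18 to 3.24, and its gap was 0.707 of the whole range. Chance flags about 1 in 20 groups, and 22 probe sets were examined.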

How the results depend on the processing

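The count of 7 SOX probe sets called higher was 5 to 7 when each array was left out in turn and 5 to 10 in the other alternatives (5 with a fold threshold of 2, with a mean log2 value over 4, and with 1 probe set per gene, and 10 with no fold threshold). SOX2 213721_at, SOX15 206122_at and SOX4 201416_at, 201417_at and 213668_s_at kept their call in every alternative in which they were fitted. The cause of each of the following changes was not tested unless stated. The count of 1 called lower, SOX9 202936_s_at, was 0 with colonies averaged within donor, with a fold threshold of 2, within KB10460 alone, and with a mean log2 value over 4, which removes that probe set. It was 0 to 1 when each array was left out. The count of 1 in the difference of the change was 0 with a mean log2 value over 4, for the same reason, and 0 to 1 when each array was left out. No SOX probe set was called between the donors' iPSCs in any alternative (0 to 0 when arrays were left out).

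With the donor as a replicate block, which pairs the cultures of an animal, 7 SOX probe sets were called higher and 1 lower, and no call of a SOX probe set changed. Colonies with the same number in both donors have nothing else in common, and with that number as a replicate block 0 SOX probe sets were called between the donors.

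Direction changed only in probe sets that were not called. SOX13 209736_at was at -0.035 with centring on the 75th percentile, -0.012 with KB10973 colonies 1 and 2 averaged, -0.19 within KB10460, -0.018 without KB10973 colony 1 and -0.0057 without KB10973 colony 2, and ranged from -0.094 to 0.13 when each array was left out. Within KB10973, SOX2 213722_at was at -0.0096, SOX2 214178_s_at at 0.017 and SOX4 213665_at at 0.12. Leaving out each array gave -0.017 to 0.32 for SOX2 213722_at and -0.17 to 0.011 for SOX4 213665_at, with the direction changed without the KB10460 fibroblasts. The SOX3 call also ended within KB10460 (0.80, adjusted p = 0.18). In the endoderm and mesoderm list 0 genes were lower without KB10973 colony 1 or 2 or the KB10460 fibroblasts. The other list counts moved by over 1.5 times in some alternatives, 27 of 482 values in all. Values near the array medians may be close to background, where folds can be understated, and this was not tested. The 2 fibroblast arrays limit every comparison with them.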
